A study of Mus musculus with 2 samples.

Results

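Semaphorins are guidance ligands, and plexins and neuropilins are their receptors. The genes described here are those whose symbol is that of a semaphorin of classes 3 to 7, a plexin or a neuropilin in the GENCODE M21 annotation of the mouse genome build mm10, 31 of 55536 annotated genes. They are 20 semaphorins (7 of class 3, 6 of class 4, 2 of class 5, 4 of class 6 and 1 of class 7) and 11 receptors (9 plexins and 2 neuropilins). Their levels were read in hippocampus of mice of the B6CASTF1/J strain, the F1 hybrid of C57BL/6J and CAST/EiJ, at 10 days of age. The labels give 1 group with 2 biological replicates and no treatment, each labelled male, each begun from 300 ng of total RNA, and each with 3 males in its description. Whether a library pools those 3 animals, and whether the 2 libraries come from separate animals, is not spelled out. Sex-linked counts, given below, differed between the libraries, and how much of the spread between them is technical was not tested.

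Class 3 semaphorins are secreted and mostly act through a neuropilin, which binds the ligand, and a class A plexin, which carries the signal into the cell. Classes 4 to 6 span the membrane and bind plexins directly, and the class 7 protein is held at the surface by a lipid anchor and acts through plexin C1 and integrins. Activated plexins switch off small GTPases of the Ras and Rap family and loosen the cytoskeleton and its contacts, so that growth cones turn away or collapse. In the hippocampus the families are known for sorting mossy fibres into their layers and for pruning their long infrapyramidal branch. They are also known for setting the number of spines and synapses. Which of these steps was under way at the age sampled was not tested.

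Replicate 1 held 32035705 expected counts and replicate 2 29747193. The 31 genes together held 0.320% and 0.322% of them. In replicate 2 the sex-linked genes went against the label: Xist, the RNA that coats an inactive X chromosome, had 25 counts in replicate 1 and 30841 in replicate 2, and the Y-linked Ddx3y had 2164 and 0. Its label is kept in the text as given, and every difference between the libraries below is also one between a library with many and one with almost no counts of Y-linked genes. Markers of the labelled tissue were present, with Prox1 and Dsp of dentate granule cells and Wfs1, Bok and Fibcd1 of the CA fields at 1 TPM or more (a level per transcript length, set to 1 common sum per library) in both libraries. Markers of some other cells moved between the libraries. The summed level of 5 myelin genes was 156 TPM in replicate 1 and 281 in replicate 2. For 2 red blood cell genes it was 339 and 191. For 5 choroid plexus genes it was 12.7 and 354, mostly from Ttr at 8.02 and 340 TPM, while Kl had 1.76 and 2.08. Sums changed little for endothelium (60.53 and 61.45) and pericytes (63.95 and 62.68). None of the markers was at 0 in both libraries.

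All 31 genes were detected at 1 TPM or more in both libraries. Of these, 24 reached 10 TPM in both and 6 stayed under 5 TPM in both. The median of their mean levels was 28.5 TPM, against 15.7 TPM over the 13062 nuclear protein-coding genes detected in both libraries, and 22 of the 31 lay above that value. The spread between the libraries was small beside the range of levels, with a median SD of 5.13% of the mean and a largest of 27.3%, that of Plxnb3. Of the 30 neighbouring pairs in the order of means, 17 had overlapping ranges, so the order is firm only between groups of genes and not from one gene to the next. The FASTQ-based table gave the same 6 lowest genes, shared 4 of the 5 highest, and put Nrp1 in place of Plxna1 at the top. In bulk tissue, fewer cells that make a transcript and less of it per cell cannot be told apart.

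**Figure D1:**
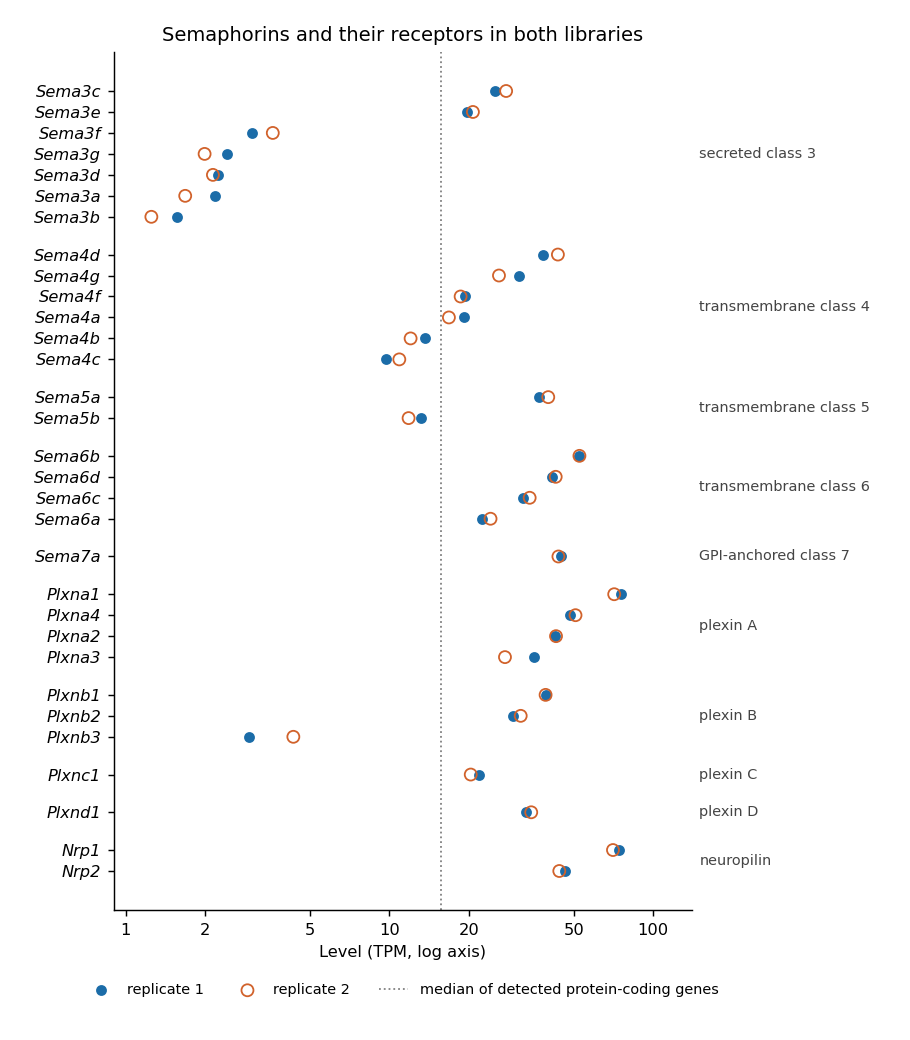
Level of each of the 31 genes in TPM (log axis) in replicate 1 (filled) and replicate 2 (open), grouped by role, with the median of 15.7 TPM over detected protein-coding genes as a dotted line. Of the secreted class 3 ligands 5 lie under 5 TPM in both libraries, together with the plexin gene Plxnb3.

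The secreted class 3 ligands fell into a higher and a lower set. Sema3c, which guides neural crest cells and axons in development, stood at 25.3 TPM in replicate 1 and 27.7 in replicate 2, and Sema3e, which binds plexin D1 without a neuropilin, at 19.7 and 20.7. Both lay above the other 5 in each library, without overlap. Sema3f, the neuropilin-2 ligand known for repelling mossy fibre axons from the infrapyramidal bundle, had 3.01 and 3.61 TPM, and Sema3a, the founding repellent of the class and a neuropilin-1 ligand, had 2.17 and 1.68. Sema3g, mainly known from blood vessels, had 2.41 and 1.99 TPM, and Sema3d had 2.24 and 2.14. Sema3b was the lowest of all 31 genes with 1.56 and 1.25 TPM, which rested on 85 and 72 counts. The class summed to 57.7 ± 1.95 TPM (SD, n = 2), 13.3% ± 0.330 of all semaphorin TPM, and Sema3c and Sema3e made up most of it.

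All class 4 ligands lay above the lower set of class 3 in both libraries. Sema4d, the plexin-B1 ligand also known as CD100, was the highest with 38.2 TPM in replicate 1 and 43.6 in replicate 2, and Sema4c, a ligand of plexin B2, the lowest with 9.67 and 10.9. Between them lay Sema4g at 31.02 and 26.03, Sema4f at 19.4 and 18.6, Sema4a at 19.2 and 16.8 and Sema4b at 13.6 and 12.03 TPM. The products of Sema4b and Sema4f are known to bind the postsynaptic scaffold PSD-95. The ranges of Sema4f and Sema4a overlapped, and those of the other neighbours within the class did not. In the FASTQ-based values Sema4c was not the lowest, with 23.0 and 23.1 TPM against 20.9 and 18.0 for Sema4b. The class summed to 129.5 ± 2.23 TPM.

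Class 5 ligands carry thrombospondin repeats beside the sema domain and can attract or repel axons. Sema5a, which is known to limit excitatory synapses on dentate granule cells, had 36.9 TPM in replicate 1 and 40.0 in replicate 2. Sema5b had 13.2 and 11.8, so the ranges of the pair were separate.

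Class 6 had the largest sum of any semaphorin class, 150.9 ± 3.69 TPM and 34.8% ± 0.537 of the semaphorin TPM. Sema6b, a plexin-A4 ligand, stood at 52.5 TPM in replicate 1 and 52.6 in replicate 2, the highest of all 20 semaphorins in both libraries. Sema6d followed at 41.3 and 42.7, Sema6c at 32.0 and 34.0 and Sema6a at 22.5 and 24.2 TPM. The 4 ranges did not overlap. Sema6a and Sema6b are the ligands known for confining mossy fibres to their layer through plexins A2 and A4. The single class 7 gene Sema7a had 44.9 and 43.8 TPM, below Sema6b and above each class 3, 4 and 5 ligand in both libraries. In replicate 2 Sema4d came close with 43.6 TPM. In the FASTQ-based values of that library Sema4d was the higher, at 66.1 against 64.8 for Sema7a. Together the 13 membrane-bound semaphorins made up 86.7% ± 0.330 of the semaphorin TPM.

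On the receptor side the class A plexins, the signalling partners of the neuropilins and receptors of class 6, held 44.5% ± 0.684 of the receptor TPM. Plxna1 (chromosome 6, 89316314 to 89362620, minus strand) was the highest of all 31 genes with 75.6 TPM in replicate 1 and 71.2 in replicate 2. Plxna4, which serves both Sema3a and the class 6 ligands, had 48.5 and 50.8, and Plxna2, the receptor known for making part of the mossy fibre layer permissive for growth, had 42.5 and 42.8. Plxna3 on chromosome X, the plexin-A that works with neuropilin-2 and Sema3f, was the lowest of the class with 35.5 and 27.4 TPM. The 4 ranges were separate. Class B plexins, the main receptors of class 4 semaphorins, showed a wide gap: Plxnb1 had 39.4 and 39.1 TPM and Plxnb2 29.3 and 31.5, against 2.92 and 4.32 for Plxnb3, also on chromosome X. Plxnd1, the Sema3e receptor, had 32.9 and 34.5 TPM, and Plxnc1, the Sema7a receptor, 21.9 and 20.3.

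Both neuropilins were high, and Nrp1 was above Nrp2 in each library. Nrp1 (chromosome 8, 128358604 to 128503363) had 74.0 TPM in replicate 1 and 70.5 in replicate 2, and its range overlapped that of Plxna1. Nrp2 (chromosome 1, 62703285 to 62818695) had 46.4 and 44.1. Together they held 26.5% ± 0.418 of the receptor TPM. The log2 ratio of Nrp1 over Nrp2 was 0.67 ± 0.0016 (SD, n = 2). From expected counts not divided by length it was -0.17 ± 0.0302, with Nrp2 the higher; the leading transcripts are 3597 bases for Nrp1 and 6708 for Nrp2.

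Ligands and receptors had nearly equal sums on the TPM scale. The 20 semaphorin genes summed to 430.6 TPM in replicate 1 and 436.1 in replicate 2, and the 11 receptor genes to 448.8 and 436.5, so the log2 ratio of ligand over receptor was -0.031 ± 0.041, within the spread between the libraries. The balance depends on the scale. Without division by length the ratio was -0.74, and the longest coding sequence had a median of 5682 bases over 9 plexins against 2412 over 20 semaphorins.

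A fixed list of 12 ligand and receptor pairs known from binding studies was compared within each library, on the TPM scale with a pseudocount of 0.1. In 9 of the 12 the ligand was below its receptor in both libraries, and in 5 at least 2-fold. The latter count was 3 in the FASTQ-based values and 8 from counts not divided by length. The widest gaps in the list were those of 2 low secreted ligands. The log2 ratio was -5.17 ± 0.198 for Sema3a over Nrp1 and -3.74 ± 0.232 for Sema3f over Nrp2. Sema3c, the highest class 3 ligand with 25.3 TPM in replicate 1 and 27.7 in replicate 2, was not in the list. A smaller gap was found for Sema3e over Plxnd1, at -0.74 ± 0.0042. Of the pairs made of 2 membrane proteins, Sema5b over Plxna1 was at -2.55 ± 0.0497, Sema4c over Plxnb2 at -1.56 ± 0.0487 and Sema6a over Plxna4 at -1.09 ± 0.0274. Sema6a over Plxna2 stood at -0.87 ± 0.0668, Sema6d over Plxna1 at -0.80 ± 0.0954 and Sema5a over Plxna2 at -0.15 ± 0.0758. Those ligands were the lower partner in both libraries. In the FASTQ-based values 2 of these gaps were much narrower, at -0.46 for Sema4c over Plxnb2 and -0.20 for Sema3e over Plxnd1. From counts not divided by length 9 of the 10 ratios to a plexin were lower than from TPM, all but that of Sema3e.

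In 2 pairs the ligand was the higher partner, and in 0 from counts not divided by length. Sema7a over Plxnc1 had a log2 ratio of 1.07 ± 0.0484, and Sema6b over Plxna4 one of 0.083 ± 0.0472. The order of both pairs rests on the division by length: from counts the ratios were -0.0031 and -1.71. For Sema4d over Plxnb1 the sign differed between the libraries, -0.043 in replicate 1 and 0.15 in replicate 2, so the pair was not separated. Among the receptors, Plxna4 over Plxna3 was at 0.67 ± 0.31, with 0.45 in replicate 1 and 0.89 in replicate 2.

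**Figure D2:**
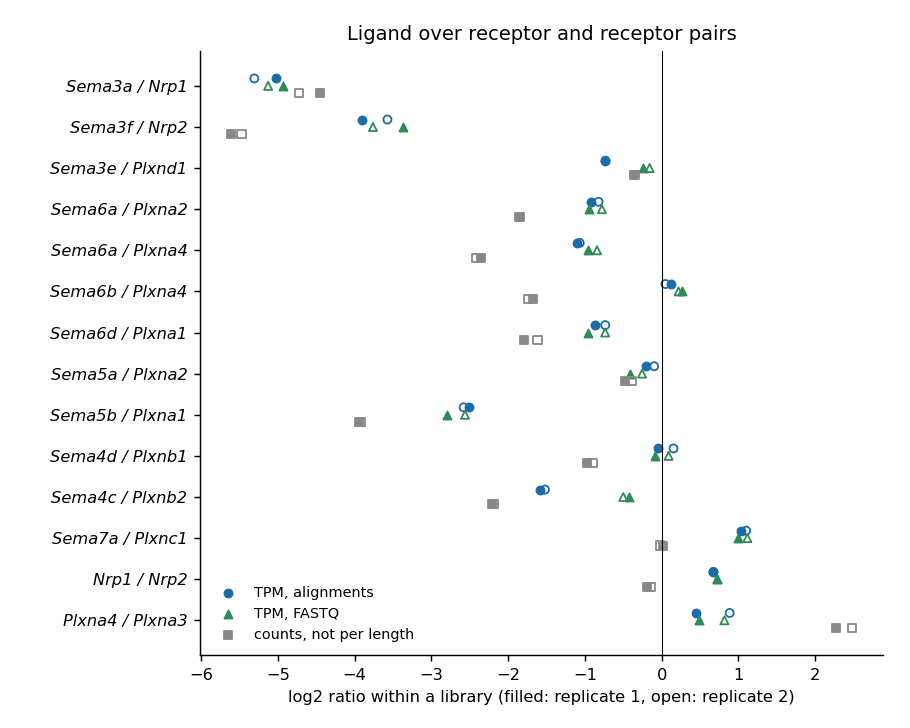
Log2 ratio within each library (filled, replicate 1; open, replicate 2) for 12 ligand and receptor pairs and 2 receptor pairs, from TPM of the alignment-based tables (circles), TPM of the FASTQ-based table (triangles) and expected counts not divided by length (squares). Ratios of Sema3a over Nrp1 and Sema3f over Nrp2 lie furthest below 0, and division by length moves Sema6b over Plxna4, Sema7a over Plxnc1 and Nrp1 over Nrp2 across 0.

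Between the libraries the counts of most members differed little. The median absolute log2 ratio of the 30 members whose counts averaged 100 or more was 0.077, against 0.070 over all 12881 genes tested, and none differed 2-fold. By an exact binomial test, two-sided and adjusted after Benjamini and Hochberg over all genes, 11 of the 30 were called, beside 11.8% of all genes, and 16 had an unadjusted p under 0.05, beside 23.0% of all genes. The test counts reads only, so it calls small differences in genes with many counts. The members' median mean count was 2559, against 808.5 over all genes tested. Among genes with a mean count of 3000 or more 27.6% were called, and 5 of 10 members. Between 1000 and 3000 counts 11.4% were called, and 5 of 11 members. Between 100 and 1000 counts 7.26% were called, and 1 of 9 members. With a common dispersion estimated from the same 2 libraries in the model (edgeR's exact test), 0 members and 84 of all genes were called, and 1 member had an unadjusted p under 0.05, beside 3.19% of all genes. At 2-fold and an adjusted p under 0.05 the count was 0 members, beside 0.303% of all genes.

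Higher in replicate 2 were 7 members, beside 6.28% of all genes. Plxnb3, a plexin known from oligodendrocytes, was the furthest apart. It had 353 counts in replicate 1 and 496 in replicate 2, 1.52-fold with an exact 95% counting interval of 1.32 to 1.75 and an adjusted p of 8.3e-08 in the exact binomial test. Its adjusted p in edgeR's exact test was 0.071. Plxnb2 had 2698 and 2782 counts, a log2 ratio of 0.16, Sema4d 2143 and 2196 (0.15) and Sema3c 2608 and 2652 (0.14). Sema5a, Sema6d and Plxna4 followed with log2 ratios of 0.10, 0.094 and 0.076. The call of Sema6d, with an adjusted p of 0.034 in the exact binomial test, was lost with 2 other scalings and with no filter on low counts. The summed myelin markers moved the same way, from 156 to 281 TPM, as did those of choroid plexus, from 12.7 to 354. Those of oligodendrocyte precursors went the other way, from 59.1 to 51.7 TPM. The part of any of these cells in the differences was not tested.

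Lower in replicate 2 were 4 members, beside 5.49% of all genes. Sema4g had 2569 and 2142 counts (log2 ratio -0.15), Plxna3 2692 and 2283 (-0.12), Nrp2 6177 and 5317 (-0.10) and Plxna1 14086 and 12349 (-0.077). Even Sema4g, the furthest of the 4, stood at 0.902 times its value in replicate 1. The X-linked members went opposite ways, with Plxnb3 called higher and Plxna3 lower in replicate 2, and neither passed edgeR's exact test. The share of all X-linked genes called was not computed, and a part of the sex-linked difference in these calls was not tested. Sema3a had the lowest ratio of the tested members, with 247 and 182 counts and a log2 ratio of -0.33, and did not pass, at an adjusted p of 0.12 in the exact binomial test.

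**Figure D3:**
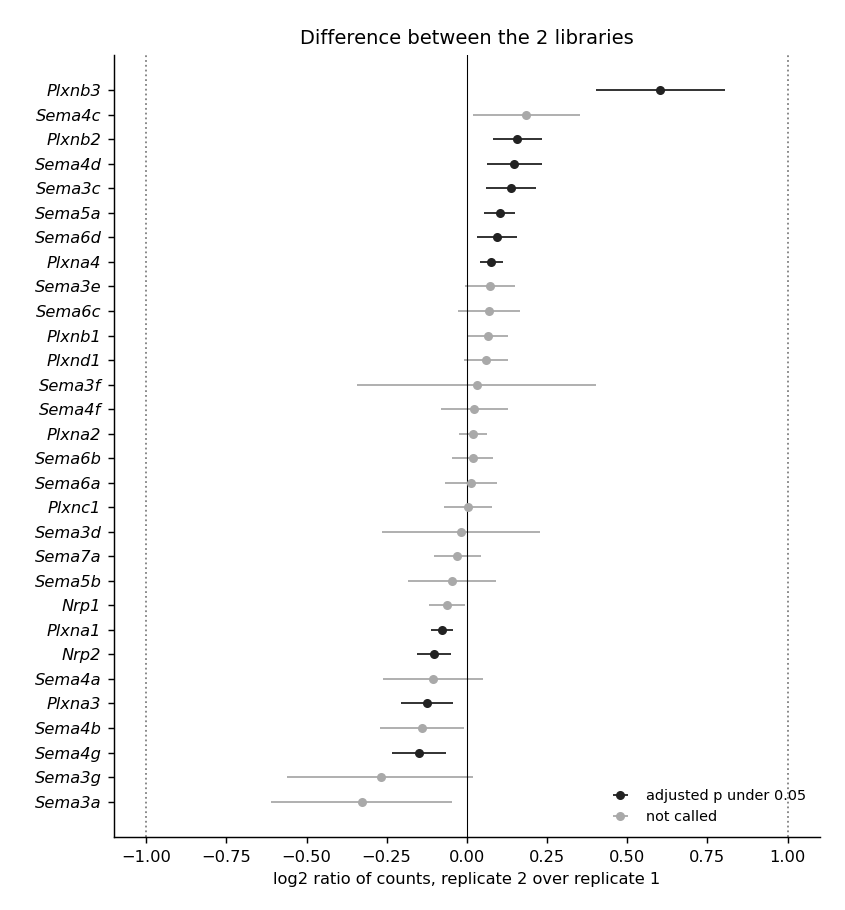
Log2 ratio of counts, replicate 2 over replicate 1, for the 30 members whose counts averaged 100 or more, with exact 95% counting intervals; dark points passed an adjusted p under 0.05 in the exact binomial test, and dotted lines mark 2-fold. Plxnb3 lies furthest to the right at 0.60, and no interval reaches the 2-fold lines.

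Total RNA also holds unspliced and partly spliced transcripts, so the share of each gene's TPM that falls on annotated coding transcripts was compared. The 31 genes have 226 annotated transcripts, from 1 to 19 a gene. The median share on protein-coding transcripts was 83.2% over the members in the alignment-based tables and 79.3% in the FASTQ-based table, against 89.6% and 87.6% over 13023 detected protein-coding genes. Transcripts annotated as retaining an intron held a median of 11.7% and 9.04% of the members' TPM, against 2.76% and 2.51%. Such transcripts held 20% or more of TPM in 9 members by alignments and 8 by FASTQ, beside 17.6% and 18.5% of all those genes. As a share of counts the members' medians were 2.70% and 2.38%, against 1.09% and 0.688%, and 2 members reached 20% by each route, beside 9.31% and 10.2% of all those genes.

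Plxna3 had the largest retained-intron share of the members by both routes, 52.4% ± 4.07 of its TPM from alignments and 48.4% ± 3.27 from FASTQ. As a share of its counts they were 14.4% ± 2.72 and 7.49% ± 0.841, and by counts the largest shares were those of Sema4a by alignments (29.5% ± 0.815) and Plxnb3 by FASTQ (30.4% ± 1.71). Its coding transcript alone had 15.9 TPM in replicate 1 and 13.9 in replicate 2, so on coding transcripts Plxna3 fell from place 14 to place 21 of 31 and its log2 ratio to Plxna4 widened from 0.67 to 1.69. Nrp1 kept 80.8% ± 1.01 of its TPM on its coding transcript and Plxna1 96.1% ± 0.098, and both stayed in the first 2 places. Sema6b, Sema7a and Sema3g had all of their TPM on coding transcripts in every table. Sema3b had the lowest coding share by alignments, 27.4% ± 6.13, and its leading transcript, Sema3b-206, is annotated as a target of nonsense-mediated decay. For Plxnd1 and Plxnb2 the routes differed. Plxnd1-204, a retained-intron fragment of 442 bases, held 21.6% and 27.1% of the TPM of Plxnd1 by alignments and 0 and 0.00376% by FASTQ, and Plxnb2-205, a non-coding fragment of 834 bases, held 15.9% and 22.2% of that of Plxnb2 against 0 and 0.811%. These were the 2 members whose level differed by 0.5 or more (log2, on the scale of nuclear protein-coding genes) between the routes, lower by FASTQ, beside 11.0% of 14197 genes.

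**Figure D4:**
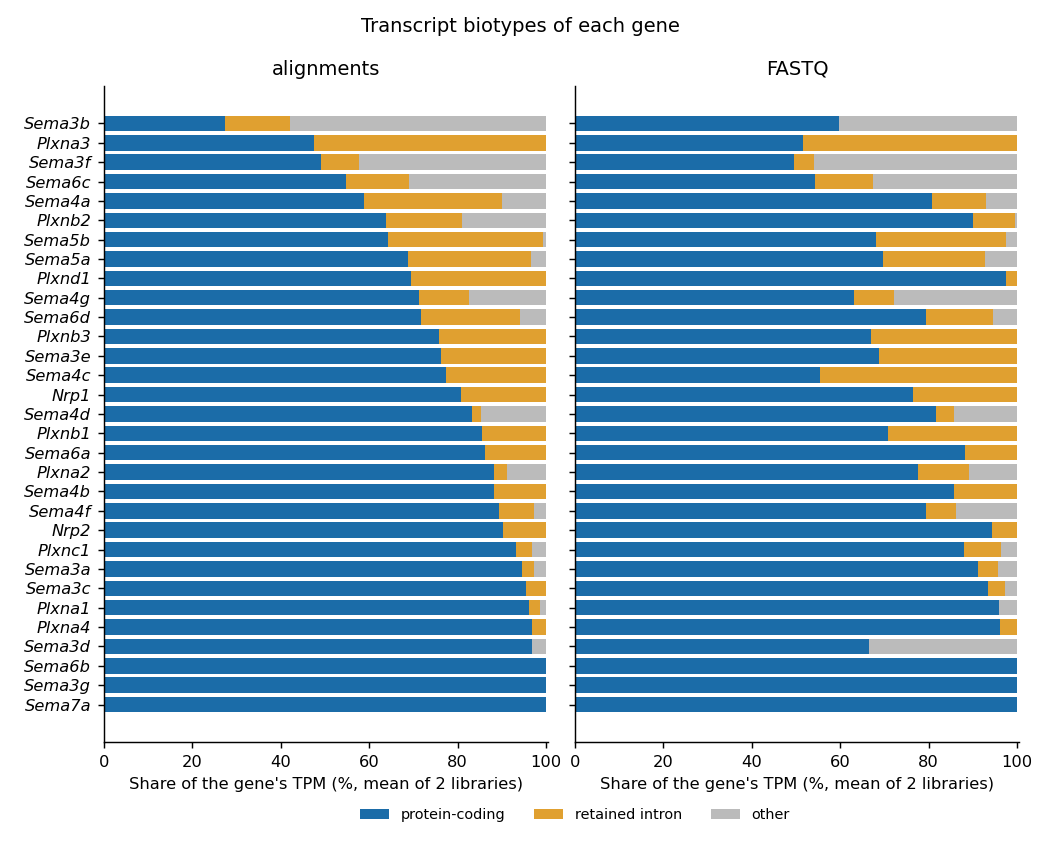
Share of each gene's TPM on protein-coding transcripts, retained-intron transcripts and others (mean of 2 libraries), from alignments (left) and FASTQ (right), sorted by the coding share from alignments. Plxna3 has about equal coding and retained-intron parts by both routes, and Plxnd1 and Plxnb2 have smaller coding parts by alignments than by FASTQ.

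Nrp2 was divided between several coding forms, and these were followed because they differ in their last coding exons and in optional parts ahead of them. Coding models that share all coding exons but the last ones end either in the a tail or in the b tail. Among full coding models the a tail held 63.4% of TPM in replicate 1 and 62.4% in replicate 2 by alignments, and 63.7% and 62.3% by FASTQ. The b tail held 36.6% and 37.6% by alignments. The share of the a tail thus lay between 62.3% and 63.7% in all 4 tables, with a mean of 62.9% ± 0.666 by alignments. The a tail ends in a stretch known to bind the PDZ domain of the adaptor protein Gipc1, which the b tail lacks. The last 30 coding bases of each on the mm10 reference, with the last 3 codons in capitals, are those of Nrp2-204 at chr1:62815605-62815634 and Nrp2-205 at chr1:62795957-62795986, both on the plus strand.
Nrp2 a tail: atcaatcatcagaagtgctgcTCGGAGGCA
Nrp2 b tail: aagctagagcaagagcggggcTCGCACTGC

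Within the a forms, a cassette exon of 51 bases, 17 codons, was included in 32.3% of TPM in replicate 1 and 36.2% in replicate 2 by alignments and in 32.7% and 33.6% by FASTQ. A further optional stretch of 15 bases lengthens an exon shared by the a and b forms, and it was in 13.0% and 5.04% by alignments and in 9.35% and 7.46% by FASTQ. Nrp2-203, which has only that stretch, was listed at 4.59 TPM in replicate 1, with a deposited interval of 1.57 to 9.58, and at 0 in replicate 2, so its share is the least certain. The cassette lies at chr1:62812534-62812584 and the lengthened exon at chr1:62786281-62786316, and capitals mark the optional bases.
Nrp2 cassette exon: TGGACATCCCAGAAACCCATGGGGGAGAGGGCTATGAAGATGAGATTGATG
Nrp2 lengthened exon: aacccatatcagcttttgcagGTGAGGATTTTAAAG
As whole forms, Nrp2-204 (a tail, neither optional part, 909 codons) had 13.7 TPM in replicate 1 and 15.6 in replicate 2, Nrp2-205 (b tail, 901 codons) 15.0 and 13.8, and Nrp2-202 (a tail with the cassette, 926 codons) 8.39 and 7.79. The ranges of Nrp2-204 and Nrp2-205 overlapped, and Nrp2-202 lay below both.

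Sema6d had 8 coding models that combine 3 optional coding parts. By alignments the first cassette exon, of 57 bases, was in 39.7% of coding TPM in replicate 1 and 50.6% in replicate 2, and by FASTQ in 39.0% and 46.3%. The second, of 168 bases, was in 34.9% and 42.6% by alignments and in 28.3% and 35.3% by FASTQ, not counting Sema6d-207, whose version ends earlier. Both were higher in replicate 2 by each route, though both routes read the same libraries. Deposited intervals overlapped between the libraries for Sema6d-206 (2.68 to 7.78 and 5.87 to 11.0 TPM) and Sema6d-208 (9.84 to 13.4 and 7.34 to 11.1). A 39-base extension of an earlier exon was in 17.8% and 14.2% by alignments and in 23.2% and 21.5% by FASTQ. The form with none of the 3 (Sema6d-202 and Sema6d-208, 998 codons) was the largest, with 41.5% and 32.5% by alignments and 38.4% and 29.4% by FASTQ. The exons lie on chromosome 2, plus strand, at chr2:124660705-124660761, chr2:124662204-124662371 and chr2:124660244-124660344, and capitals mark the optional bases.
Sema6d first cassette exon: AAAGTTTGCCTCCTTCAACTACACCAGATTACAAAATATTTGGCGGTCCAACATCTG
Sema6d second cassette exon: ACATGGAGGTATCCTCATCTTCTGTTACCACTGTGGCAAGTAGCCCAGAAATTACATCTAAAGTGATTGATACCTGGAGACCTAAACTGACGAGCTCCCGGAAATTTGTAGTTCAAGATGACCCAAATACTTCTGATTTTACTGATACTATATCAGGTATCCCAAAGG
Sema6d extended exon: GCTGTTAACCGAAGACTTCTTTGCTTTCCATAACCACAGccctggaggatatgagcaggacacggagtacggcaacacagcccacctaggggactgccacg

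Sema6a had 4 coding forms. The form of 1031 codons (Sema6a-201 and Sema6a-210) held 52.4% of coding TPM in replicate 1 and 36.3% in replicate 2 by alignments, and 52.0% and 41.2% by FASTQ. The form of 976 codons held 26.2% and 24.3% by alignments and 25.1% and 25.1% by FASTQ. The longest, of 1048 codons, held 14.3% and 20.9%, and 16.7% and 24.1%. The form of 1005 codons (Sema6a-203) held 7.13% and 18.5% by alignments and 6.21% and 9.61% by FASTQ. The form of 1031 codons was lower and those of 1048 and 1005 codons were higher in replicate 2 by both routes, while the form of 976 codons moved by less than 2 percentage points. Deposited intervals overlapped between the libraries for Sema6a-201 (7.92 to 11.3 and 4.81 to 8.41 TPM) and Sema6a-203 (0.011 to 2.99 and 1.85 to 5.25).

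**Figure D5:**
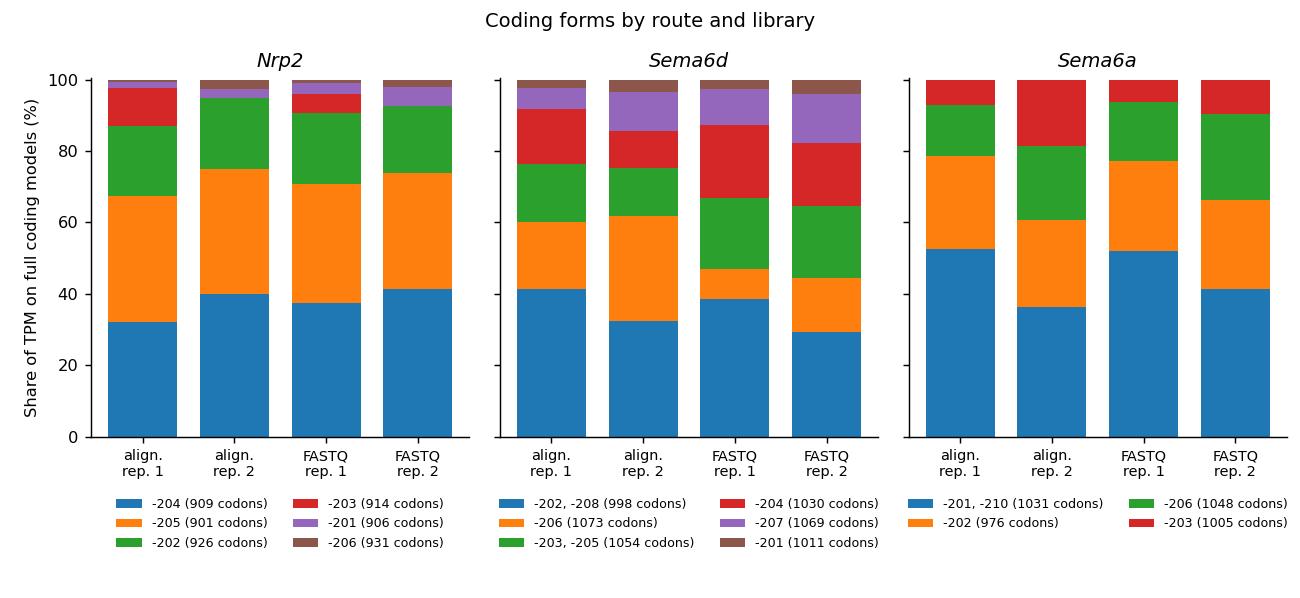
Share of TPM on full coding models held by each coding form of Nrp2, Sema6d and Sema6a, in replicates 1 and 2 by alignments and by FASTQ; forms with the same coding exons are joined, and the length in codons is given. Nrp2-205 and Nrp2-202 keep similar shares in all 4 bars, while Nrp2-204 is higher and Nrp2-203 lower in replicate 2 by both routes. The 998-codon form of Sema6d and the 1031-codon form of Sema6a are also lower in replicate 2 by both routes.

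The leading transcript, the one with the largest share of a gene's TPM, was the same by both routes in 28 of 31 members and the same in all 4 tables in 25. It held at least 50% of TPM by both routes in 20 members. The 3 exceptions were class 4 ligands. For Sema4d the alignments put 37.2% ± 3.91 on Sema4d-201, the full coding transcript, and 36.5% ± 0.670 on Sema4d-204, a model of 1249 bases with an incomplete end, so the 2 were not separated, and FASTQ put 22.5% ± 0.260 and 37.4% ± 2.09. By counts, Sema4d-201 held 63.9% in the alignment-based tables. For Sema4c the leader was the coding Sema4c-208 by alignments (37.5% ± 5.73) and the retained-intron fragment Sema4c-206 by FASTQ (34.9% ± 6.64). For Sema4a it was Sema4a-211, a retained-intron transcript (19.1% ± 0.368), against Sema4a-208, an incomplete coding model (24.3% ± 0.254) that the alignments listed at 0. By counts averaged over the libraries, the full coding Sema4a-201 led by both routes, with 28.8% by alignments and 45.7% by FASTQ.

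Of the 31 members, 5 had 2 or more transcripts at 20% of TPM or more by both routes: Nrp2, Sema6a and Sema4d, described above, Sema4b and Sema3e. The 2 of Sema4b, Sema4b-204 with 53.6% ± 3.71 and Sema4b-201 with 34.7% ± 4.74, encode a coding sequence of the same length. Those of Sema3e were the coding Sema3e-201 with 76.3% ± 1.95 and the retained-intron Sema3e-202 with 22.3% ± 2.14.

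Other genes of the pathway were taken from a fixed list of 43. Of 14 co-receptors and partners at the membrane, 12 were detected in both libraries. The adhesion molecules Nrcam, at 205 TPM in replicate 1 and 198 in replicate 2, L1cam at 157 and 146 and Chl1 at 142 and 138 were all above the highest neuropilin and plexin, and each is a known partner of a neuropilin. Itgb1, the integrin that binds Sema7a, had 41.3 and 39.0 TPM, close to Sema7a itself. Timd2, a receptor proposed for Sema4a, was lowest with 0.02 and 0.05 TPM. Of 10 tested, 2 were higher in replicate 2 (Kdr and Itga1) and 2 lower (L1cam and Chl1), beside 6.28% and 5.49% of all genes, and 0 passed 2-fold.

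All 29 intracellular effectors were detected in both libraries. Cfl1, the actin-severing cofilin that lies downstream of Limk1, was highest with 808 and 792 TPM. Dpysl2 had 411 and 394 TPM, Dpysl3 393 and 334 and Crmp1 378 and 325; they encode the collapsin response mediator proteins, which carry the Sema3a signal to microtubules, and their levels stood well above those of Sema3a itself. Fes, a tyrosine kinase, was lowest with 2.34 and 2.69. Of 28 tested, 2 were higher in replicate 2 (Chn1 and Mical2) and 6 lower (Dpysl2, Dpysl3, Crmp1, Dpysl5, Farp1 and Limk1), beside the same shares of all genes. None passed 2-fold, and the largest of the 8 was Dpysl3 with a log2 ratio of -0.24. Of the 5 tested genes for collapsin response mediator proteins, a group singled out after its values were seen, 4 were lower and Dpysl4, at -0.071, did not pass. Each of these 5 averaged 3000 counts or more, where 27.6% of all genes were called in either direction.

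Exons of 7 members overlap those of another annotated gene. The overlap reached 10.7% of exon bases in Plxna1, with Gm26811 on the other strand, and 7.27% in Sema4c, with D430040D24Rik on the other strand, and was at most 2.68% in the other 5. Gm26811 was listed at 0 counts in both libraries and D430040D24Rik at 17 and 27, so few counts were assigned to the partners. Whether the counting used strand is not stated in the labels or the deposited descriptions, and reads from the overlaps were not tested.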

How the data were processed

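Per the labels and the deposited descriptions, the tables of both libraries were derived by the authors from transcriptome alignments to mm10 with GENCODE M21 and, in a further transcript table, from the FASTQ file. No aligner or counter is named in these sources. The deposited expected counts are not normalized and not all whole. The deposited TPM values are scaled over all rows, spike-ins included. The deposited bounds of the TPM interval per transcript have no stated level. Values of FASTQ-based transcripts were summed per gene here. Of the rows per gene, 97 for spike-ins (0.358% and 0.359% of counts) and 26248 named only by a number (2.81e-05% and 2.00e-05%) were left out of tests.

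Expected counts were rounded. The libraries were compared, for genes averaging 100 counts or more, by an exact binomial test (two-sided) on TMM-scaled sizes (edgeR 4.0.16, R 4.3.3; scipy 1.17.1, Python 3.11.15) with Benjamini-Hochberg adjustment, called at an adjusted p under 0.05; fold changes use a prior count of 0.5. Intervals are exact Clopper-Pearson at 95% and cover counting error only, since no molecular identifiers are named. The script was tested on simulated data. DESeq2 1.42.0 size factors, other filters, edgeR's exact test, other scales and single libraries were alternatives, and TPM on protein-coding transcripts was one added after seeing the data. The dispersion of edgeR's exact test came from the same 2 libraries taken as 1 group, and no test between groups was possible.

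Members, pathway and marker lists were chosen with earlier results of these data known. Described in full were the highest and lowest gene of each role, every called member, every member whose leading transcript differed between routes or that had 2 transcripts at 20% or more by both, all pairs, and the 4 highest and the lowest gene of each pathway list. Sema6d, Plxnd1, Plxnb2, Plxna3 and the optional exons were chosen after their values were seen. Sequences are those of the GENCODE M21 transcripts on mm10, not read from the libraries. Alleles were not analysed here.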

Additional observations from a re-analysis of the deposited data

How the results depend on the processing

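The log2 ratio of ligand over receptor was 0.078 from the FASTQ-based table, -0.74 from counts not divided by length, 0.044 without the highest ligand gene and the highest receptor gene, and -0.079 on protein-coding transcripts only (added after seeing the data), and ranged from -0.060 to -0.0013 with a single library, so neither side was shown to be the higher. From counts not divided by length the ratio turned for Nrp1 over Nrp2 (-0.17), Sema6b over Plxna4 (-1.71) and Sema7a over Plxnc1 (-0.0031). In 84 alternative values of the 14 pairs no other ratio larger than its spread between the libraries turned. With 2-fold added the count of calls was 0 members, 39 of all genes and 0 pathway genes, and by edgeR's exact test 0, 84 and 0. Under the other 5 settings 10 or 11 members were called. Pairs with the ligand at least 2-fold lower, 5 of 12, came to 3 from the FASTQ-based table and 8 from counts not divided by length, and pairs with the ligand higher, 2 of 12, to 0 from those counts. Counts of detected members, of pairs with the ligand lower and of leading transcripts stayed within 1.5 times. The binomial test cannot be run with a library left out. No paired analysis was possible because there is only 1 group. The number of libraries and counting error limit the low members, Sema3b with 85 and 72 counts most.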
